A study of Mus musculus with 6 samples.

Results

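Lysosomal transcripts of mouse lung were compared between mice on a high fat diet and mice on a control diet. The genes described encode 37 lysosomal hydrolases, their helper proteins and lysosomal membrane proteins, out of 18193 genes that the array annotation names singly. They were taken from a list of 38 symbols as all probe sets whose annotation names only that gene, and Cd63, the remaining symbol, was not analysed here. The 37 genes had 85 probe sets, of which 74 passed a filter on dim signals and were tested. Every one of the 37 genes kept at least 1 tested probe set.

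The tissue was whole lung of 6 wild type mice, 3 on the high fat diet and 3 on the control diet, with 1 Affymetrix array for each mouse. The comparison asks which lung transcripts differ with diet. The sources used here do not give strain, age, sex, the make-up of the diets or their duration. The sample numbers in the labels lie in a separate range for each diet, so diet and any batch that follows these numbers cannot be told apart. A value is a MAS5 signal, a brightness on a linear scale with a trimmed mean of 500 on each array, so each signal is relative to the other transcripts of its array.

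Lysosomes are acidic compartments in which proteins, sugar chains and lipids taken up by the cell or delivered by autophagy are broken down. Soluble hydrolases reach them mostly through mannose phosphate receptors, a proton pump keeps them acidic, and heavily glycosylated membrane proteins line their wall. In lung, alveolar macrophages, which clear surfactant and particles, are rich in lysosomes, and the lamellar bodies of alveolar type II cells are lysosome-related organelles.

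Markers of lung epithelium were bright on all 6 arrays, and markers of some other cell types differed with diet. Of 7 tested markers of alveolar and airway epithelium, 0 were called by limma (1 at an unadjusted p under 0.05), and their summed signal was 251479 to 279101 in high fat mice and 183727 to 296915 in control mice. Those are brightest probe sets, and a dimmer one of Hopx, a type I cell gene, was called lower (fold 0.703, limma adjusted p = 0.0376). Of 6 tested adipocyte markers, 6 were called higher in high fat mice. The summed adipocyte signal was 23021 to 32293 in high fat mice and 2827 to 6306 in control mice. The summed cardiac muscle signal was 41575 to 145392 in high fat mice and 19179 to 44563 in control mice, with 1 of 7 markers called higher. The summed skeletal muscle signal was 16163, 1130 and 1400 in high fat mice and 49522, 532 and 2768 in control mice. The signal of the 3' control probe set was divided by that of the 5' one for Gapdh and b-Actin. For Gapdh this ratio was 0.854 to 0.957 in high fat mice and 0.743 to 0.795 in control mice. For b-Actin it was 1.503 to 1.546 in high fat mice and 1.194 to 1.437 in control mice. Both ratios were higher in high fat mice, without overlap. The part of RNA quality and of these cell types in the results was not tested. In whole tissue, fewer cells of a type and less RNA per cell cannot be told apart.

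Few lysosomal transcripts passed the test for a difference with diet. By the brightest probe set of each gene, 3 of 37 genes were called higher in high fat lungs (Arsb, Gaa and Npc1) and 1 was called lower (Cd68), while 33 were not called. A call is an adjusted p under 0.05 in limma, with Benjamini-Hochberg adjustment over all 27022 tested probe sets. Of the 12689 genes with a tested probe set, 9.37 percent were called by the brightest one, 6.27 percent higher and 3.1 percent lower, so 4 calls among 37 genes lie near the share among all genes. At an unadjusted p under 0.05 there were 11 of the 37 genes, against 25.5 percent of all genes. Over probe sets, 6 of 74 were called, 4 higher and 2 lower, against 12.9 percent of all tested probe sets (4.63 percent higher and 8.27 percent lower).

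The genes lay on both sides of 0. The median log2 difference, high fat minus control, was -0.01 over the 37 brightest probe sets, with 18 above 0 and 19 below, against 0.06 over the brightest probe sets of all genes. The plot of all 37 genes by role shows members of each larger group on both sides of 0. These counts depend on how arrays are scaled. Median signals were 113 to 129 on high fat arrays and 143 to 150 on control arrays, and centring each array on its median raised the median log2 difference of all probe sets by 0.27. With that centring 11 genes were called higher (Ctsb, Ctsh, Hexa, Lamp1, Lamp2, Man2b1, Npc2 and Psap besides Arsb, Gaa and Npc1) and 1 lower (Cd68), and 80.1 percent of all calls were higher, against 35.9 percent as reported here. Over probe sets, 23 of the 74 were then called, while calls among all tested probe sets rose to 20.2 percent, from 12.9 percent. With quantile normalization 2 genes were called higher (Arsb and Gaa) and 4 lower (Cd68, Ctsl, Ctss and Grn), and 44.7 percent of all calls were higher. Over probe sets, 7 of the 74 were called there, against 11.5 percent of all tested probe sets.

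**Figure D1:**
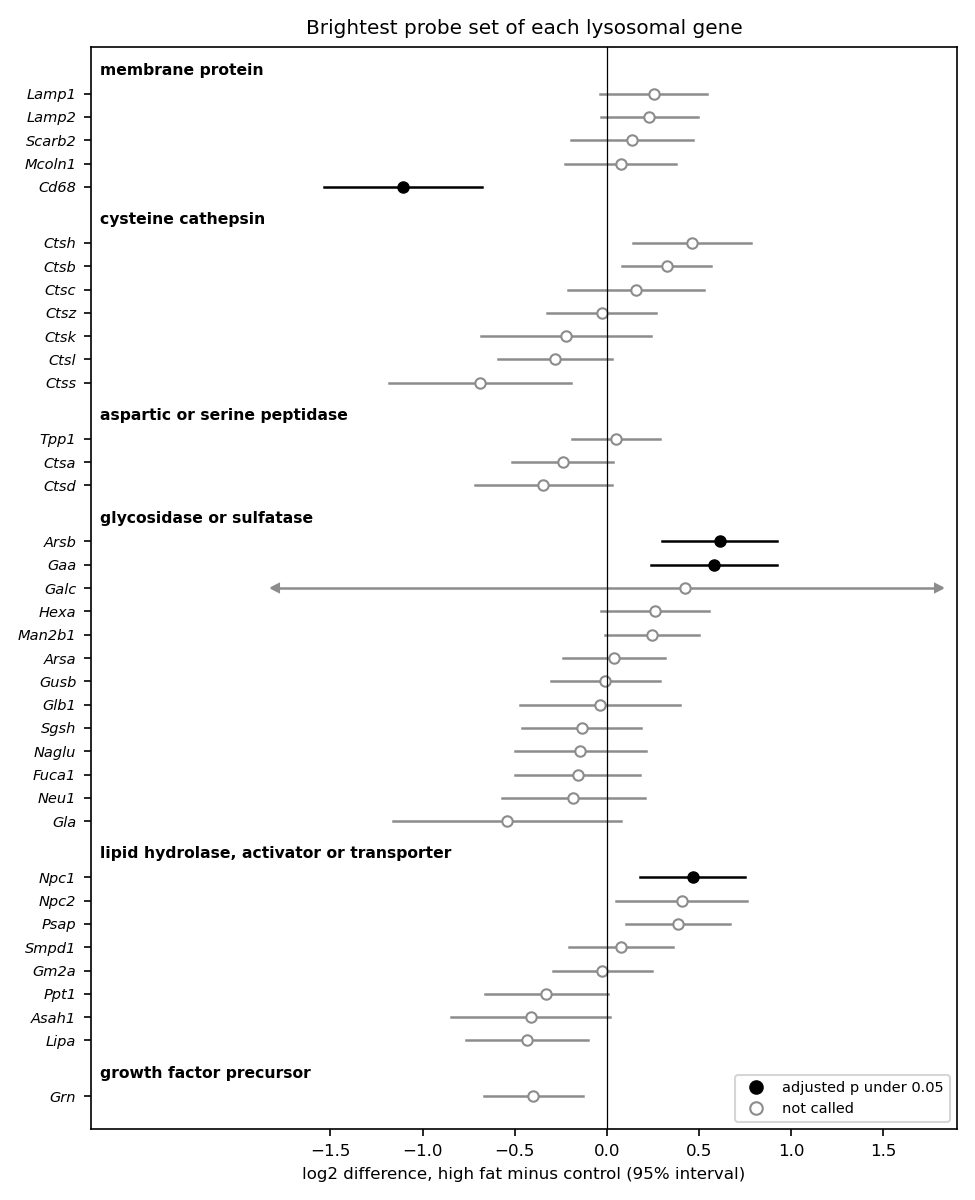
Log2 difference between high fat and control mice (horizontal axis) for the brightest probe set of each of 37 lysosomal genes, grouped by role, with lines for the 95% interval of the limma fit (3 mice per diet). Filled points have an adjusted p under 0.05. Cd68 stands lowest at -1.11, Arsb, Gaa and Npc1 are the filled points above 0, and the interval of Galc runs past both ends of the axis, as its arrowheads show.

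Many lysosomal genes carry near their start site the palindrome CACGTG, the core of the element bound by TFEB and its relatives. Promoter windows of 300 bases, from 250 before to 50 after the start site (RefSeq, build GRCm38.p6), were matched for 33 of the 37 genes. Asah1, Ctsb, Ctsh and Npc1 were not matched. The core, the same on both strands, was in the windows of 11 of the 33 genes (33.3 percent), against 8.09 percent of 27025 genes. The longer TCACGTGA, which holds the core, was in those of 4, namely Ctsa, Ctsd, Gla and Mcoln1 (12.1 percent against 1.12 percent). A still longer form, the CLEAR palindrome, was in those of 0 of the 33 genes, against 0.37 percent of the 27025 genes. With so low a share among all genes, 33 genes are too few to show a lack of it. By brightest probe sets, the median log2 difference between diets was -0.14 over the 11 genes with the core and 0.02 over the 22 without, and calls numbered 1 of 11 and 2 of 22.

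The 250 bases before the start site are shown, 5′ to 3′ on the strand of the gene, for Cd68 and Lamp1, the macrophage and the general membrane protein, and for Arsb and Gaa, the enzymes called higher. Capitals mark the core CACGTG, which was found 0 times for Cd68 (chr11:69666171-69666420, minus strand), 4 times for Lamp1 (chr8:13158911-13159160, plus strand), 0 times for Arsb (chr13:93771429-93771678, plus strand) and 1 time for Gaa (chr11:119267713-119267962, plus strand).
Cd68: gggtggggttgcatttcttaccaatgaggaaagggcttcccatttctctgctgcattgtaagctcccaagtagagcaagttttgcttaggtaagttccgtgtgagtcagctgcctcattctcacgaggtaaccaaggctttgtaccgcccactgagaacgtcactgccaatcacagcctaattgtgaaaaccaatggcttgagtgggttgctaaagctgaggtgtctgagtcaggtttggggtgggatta
Lamp1: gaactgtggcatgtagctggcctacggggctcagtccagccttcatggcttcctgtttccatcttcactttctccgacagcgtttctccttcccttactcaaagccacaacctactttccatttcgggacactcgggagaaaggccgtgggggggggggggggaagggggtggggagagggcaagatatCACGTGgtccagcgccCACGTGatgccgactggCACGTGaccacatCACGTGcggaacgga
Arsb: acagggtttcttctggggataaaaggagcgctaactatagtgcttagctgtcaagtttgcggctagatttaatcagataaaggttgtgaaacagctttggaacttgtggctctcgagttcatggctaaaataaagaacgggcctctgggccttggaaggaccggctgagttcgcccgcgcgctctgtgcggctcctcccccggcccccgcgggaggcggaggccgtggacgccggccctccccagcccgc
Gaa: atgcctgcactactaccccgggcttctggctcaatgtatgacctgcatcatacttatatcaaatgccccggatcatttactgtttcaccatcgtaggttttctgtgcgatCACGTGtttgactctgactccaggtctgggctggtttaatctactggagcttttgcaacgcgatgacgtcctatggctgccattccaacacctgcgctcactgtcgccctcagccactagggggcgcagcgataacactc

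Among the membrane proteins, Cd68 was lower in high fat lungs by more than the spread between mice, and Lamp1, Lamp2, Scarb2 and Mcoln1 were not called. Cd68, the macrosialin of macrophages, had signals of 421, 579 and 665 in high fat mice, against 1368, 1078 and 1097 in control mice (probe set 1449164_at). Each high fat mouse lay below each control mouse, and high fat replicate 1 was the lowest. The means were 555 ± 123 in high fat mice and 1181 ± 162 in control mice (SD, n = 3 each), a fold of 0.465 with a log2 difference of -1.11 (95% interval -1.53 to -0.68, limma adjusted p = 0.011). Cd68 was called in all 17 other settings tried, with a log2 difference between -1.25 and -0.81. It has 1 probe set on the array with its name alone, so no second probe set bears on it.

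Lamp1, a widely used marker of the lysosomal membrane, had signals of 14454, 15695 and 16219 in high fat mice, against 11725, 14441 and 12825 in control mice. The high fat values lay just above the control values without overlap, by a log2 difference of 0.25 (95% interval -0.04 to 0.54, limma adjusted p = 0.212). It is the gene with 4 copies of the core CACGTG in the sequence above. Groups without overlap were common on these arrays, at 31.8 percent of genes, and 17 of the 37 lysosomal genes had none, 10 with high fat mice above and 7 with them below.

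Lamp2, a second abundant membrane protein with a role in autophagy, was measured by 4 probe sets, 3 above 0 and 1 below. Its brightest had signals of 9561, 10782 and 9424 in high fat mice, against 7960, 8981 and 8415 in control mice. That is a log2 difference of 0.23 (limma adjusted p = 0.211). Also above 0 and without overlap was 1416344_at, with a log2 difference of 0.33 (limma adjusted p = 0.0926). The probe set 1434503_s_at instead had 6390, 6487 and 9538 in high fat mice, against 9208, 10239 and 8655 in control mice, and a log2 difference of -0.35 (limma adjusted p = 0.198). The suffix s, which the brightest probe set of Lipa also carries, marks a probe set that can match several transcripts.

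Scarb2, the receptor that carries glucocerebrosidase to the lysosome, and Mcoln1, a lysosomal calcium channel, had log2 differences of 0.13 and 0.07 by their brightest probe sets. The 95% interval of Scarb2 ran from -0.2 to 0.47 and that of Mcoln1 from -0.22 to 0.37, and in both genes the diets overlapped.

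**Figure D2:**
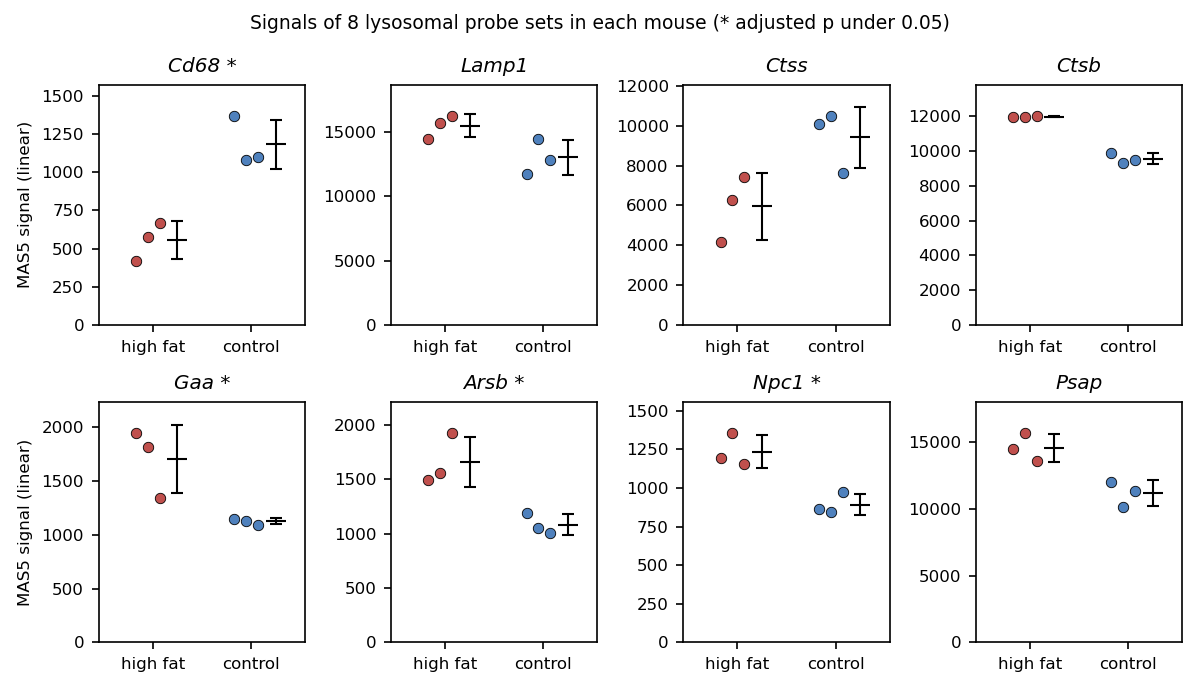
MAS5 signal (vertical axis, linear, from 0) of 8 lysosomal probe sets in each mouse, with high fat mice on the left of each panel and control mice on the right, and bars for the mean ± SD of 3 mice. The 3 high fat points lie below the 3 control points for Cd68 and Ctss and above them for the other 6 genes, and asterisks mark the 4 with an adjusted p under 0.05.

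Of the 7 cysteine cathepsins, the papain-like proteases of the lysosome, 0 were called by limma. An unadjusted p under 0.05 was found for 3 of the 7, against 25.5 percent of all genes. Ctsb, a broadly expressed member, had signals of 11963, 11909 and 11999 in high fat mice, against 9899, 9304 and 9441 in control mice. The high fat mice had a coefficient of variation of 0.378 percent and all lay above the controls. The log2 difference of 0.33 (95% interval 0.08 to 0.57) had a limma adjusted p of 0.0767. Of its 5 tested probe sets, 4 lay above 0 and the dimmest lay below, at -0.36.

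Ctsh, a cathepsin that processes surfactant protein B in type II cells, had 9578, 12234 and 11636 in high fat mice, against 7084, 8757 and 8394 in control mice. All high fat mice lay above all control mice, with a log2 difference of 0.46 (limma adjusted p = 0.0624). Its second probe set had a log2 difference of 0.32 and did not overlap between diets either (limma adjusted p = 0.175).

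Ctss, the cathepsin that trims the invariant chain of MHC class II in antigen presenting cells, lay on the other side of 0. Its signals were 4148, 6263 and 7445 in high fat mice, against 10098, 10487 and 7638 in control mice. The highest high fat mouse came close to the lowest control mouse, and the log2 difference of -0.69 (95% interval -1.18 to -0.19) had a limma adjusted p of 0.071. It passed the threshold with quantile normalization (log2 difference -0.81) and without high fat replicate 3 (-0.87), and lay at -0.41 with median centring.

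The other cathepsins of this family lay closer to 0 by their brightest probe sets. Ctsl, a general lysosomal protease, had 8481, 9326 and 6880 in high fat mice, against 9513, 9870 and 10412 in control mice (log2 difference -0.28, limma adjusted p = 0.197). Its diets did not overlap, and it passed the threshold with quantile normalization (log2 difference -0.43) and lay at -0.01 with median centring. Ctsk, known as the collagen-degrading protease of osteoclasts, had 636, 566 and 606 in high fat mice, against 964, 644 and 555 in control mice, and the diets overlapped. Ctsc, which activates serine proteases of granulocytes, and Ctsz had log2 differences of 0.16 and -0.03 by their brightest probe sets. Dimmer probe sets of Ctsz disagreed, with 1417869_s_at at 0.51 without overlap (limma adjusted p = 0.067) and 1417870_x_at at -0.16.

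Among the peptidases of other classes, 0 of 3 were called by limma, and 0 had an unadjusted p under 0.05. Ctsd, the main aspartic protease of lysosomes, had 4563, 3685 and 4177 in high fat mice, against 6623, 4463 and 4861 in control mice. High fat replicate 1 lay above control replicate 2, and the log2 difference was -0.34 (95% interval -0.71 to 0.03, limma adjusted p = 0.188). Ctsa, the protective protein of galactosidase and neuraminidase, had a log2 difference of -0.24, and Tpp1, a tripeptidyl peptidase, one of 0.05.

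The glycosidases and sulfatases cut sugar chains of glycogen, glycolipids and glycosaminoglycans. Of 13, Arsb and Gaa were called higher in high fat lungs, 0 were called lower by the brightest probe set, and 11 were not called. Arsb, the sulfatase of dermatan and chondroitin sulfate, had signals of 1493, 1561 and 1927 in high fat mice, against 1189, 1054 and 1004 in control mice (probe set 1429189_at). The groups did not overlap. The means were 1660 ± 233 in high fat mice and 1082 ± 95.8 in control mice (SD, n = 3 each), a fold of 1.53 (limma adjusted p = 0.0252). A second, dim probe set of Arsb had a log2 difference of 0.0029. The call of Arsb was kept in 12 of 17 other settings and lost in 4 of 6 fits with 1 mouse left out, with adjusted p up to 0.0964 without control replicate 3.

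Gaa, the acid glucosidase that degrades glycogen and the gene with 1 core CACGTG in the sequence above, was called by both of its tested probe sets. The brighter, 1436849_x_at, had 1942, 1816 and 1344 in high fat mice, against 1148, 1130 and 1092 in control mice. All high fat mice lay above the controls, and the means of 1701 ± 315 in high fat mice and 1123 ± 28.8 in control mice (SD, n = 3 each) gave a fold of 1.5 (limma adjusted p = 0.0391). The other, 1419428_a_at, had 1375, 1305 and 1226 in high fat mice, against 1036, 945 and 948 in control mice, a fold of 1.33 (limma adjusted p = 0.0471). With 1 mouse left out the brighter probe set stayed called in 1 of 6 fits and the dimmer in 0 of 6, with adjusted p up to 0.122 and 0.147, both without control replicate 3.

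Man2b1, the lysosomal alpha-mannosidase, gave calls that depended on the probe set. Its brightest had 2776, 2661 and 3136 in high fat mice, against 2359, 2297 and 2570 in control mice, a log2 difference of 0.24 that was not called (limma adjusted p = 0.18). The dim probe set 1436781_at had 205, 273 and 229 in high fat mice, against 407, 458 and 442 in control mice. That probe set was called lower (log2 difference -0.89, limma adjusted p = 0.0176), and it kept the call in 13 of 16 other settings. Neither probe set overlapped between diets, so the 2 lay apart in opposite directions.

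The other sugar-chain enzymes included Hexa, a subunit of the hexosaminidase that degrades GM2 ganglioside (log2 difference 0.26, limma adjusted p = 0.207), and Gla, alpha-galactosidase A (-0.54, limma adjusted p = 0.213). Arsa, Gusb, Glb1, Sgsh, Naglu, Fuca1 and Neu1 lay between -0.18 and 0.04 by their brightest probe sets. Dimmer probe sets lay lower without overlap, at -0.54 for Gusb and at -0.32 and -0.58 for Fuca1. None of these was called (limma adjusted p = 0.0742, 0.132 and 0.0685). The brightest probe set of Galc, the galactosylceramidase, varied widely from mouse to mouse, with 793, 57.6 and 368 in high fat mice and 32.8, 654 and 324 in control mice. Such spread within both diets left an interval from -2.23 to 3.08 for its log2 difference.

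Among 8 proteins of lysosomal lipid breakdown and export, Npc1 was called higher in high fat lungs and 7 were not called. Npc1, the membrane transporter that moves cholesterol out of lysosomes, had 1193, 1354 and 1154 in high fat mice, against 865, 841 and 971 in control mice (probe set 1423086_at). All high fat mice lay above all controls. The means were 1234 ± 106 in high fat mice and 892 ± 69.2 in control mice (SD, n = 3 each), a fold of 1.38 (limma adjusted p = 0.0431). The call was lost in 12 of 17 other settings, all 6 fits with 1 mouse left out among them, while the log2 difference stayed between 0.4 and 0.74.

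Npc2, the soluble partner that hands cholesterol to Npc1, had 29509, 34903 and 32055 in high fat mice, against 20321, 27592 and 25244 in control mice by its brightest probe set. The diets did not overlap, and the log2 difference of 0.41 was not called (limma adjusted p = 0.118). Of its 4 tested probe sets, 3 lay above 0, up to 0.61, and the dimmest lay at -0.33.

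Psap, the precursor of the saposins that present sphingolipids to their hydrolases, had 14502, 15653 and 13558 in high fat mice, against 12035, 10108 and 11314 in control mice. These did not overlap, and the log2 difference was 0.39 (limma adjusted p = 0.0736). Its second probe set overlapped between diets and had a log2 difference of -0.09.

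Lipa, the acid lipase of cholesteryl esters and triglycerides, had probe sets on both sides of 0. The brightest, 1450872_s_at, had 1153, 1352 and 1374 in high fat mice, against 1725, 2050 and 1495 in control mice (log2 difference -0.43, limma adjusted p = 0.0818). The probe set 1423141_at had 532, 670 and 473 in high fat mice, against 346, 442 and 411 in control mice (log2 difference 0.48, limma adjusted p = 0.114). Both pairs of groups were without overlap and they pointed in opposite directions. The remaining tested probe set of Lipa lay at 0.22, and there the diets overlapped.

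Asah1, the acid ceramidase, and Ppt1, a palmitoyl-protein thioesterase, had log2 differences of -0.41 and -0.33 (limma adjusted p = 0.178 and 0.165). All 3 tested probe sets of Ppt1 lay below 0, down to -0.66. Smpd1, the acid sphingomyelinase, and Gm2a, the activator of GM2 ganglioside breakdown, lay at 0.08 and -0.02.

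Grn, the precursor of granulins that regulates lysosomal function, had 6940, 6769 and 8275 in high fat mice, against 9451, 9694 and 9723 in control mice by its brightest probe set. The diets did not overlap, and the log2 difference of -0.4 had a limma adjusted p of 0.0593. It passed the threshold with quantile normalization (-0.53), with array weights (-0.41) and without high fat replicate 3 (-0.49), and lay at -0.12 with median centring. The other 2 probe sets of Grn lay at 0.01 and 0.09.

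Disagreement between probe sets of 1 gene was common. Of 23 genes with several tested probe sets, 12 had all of one sign and 11 had both signs. Brightness moved with the sign over the whole array. All tested probe sets were split into 5 bins of equal number by mean signal. In the dimmest bin (signals of 70.3 to 144) the median log2 difference was -0.29, and in the brightest (signals from 1338 up) it was 0.06. The lysosomal probe sets followed this order in the end bins, with 1 of 7 above 0 in the dimmest bin and 23 of 38 above 0 in the brightest. Of the 6 called lysosomal probe sets, Man2b1 1436781_at lay in the middle bin, where the median of all probe sets was -0.05. Cd68 lay in the next brighter one, where it was 0.02.

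**Figure D3:**
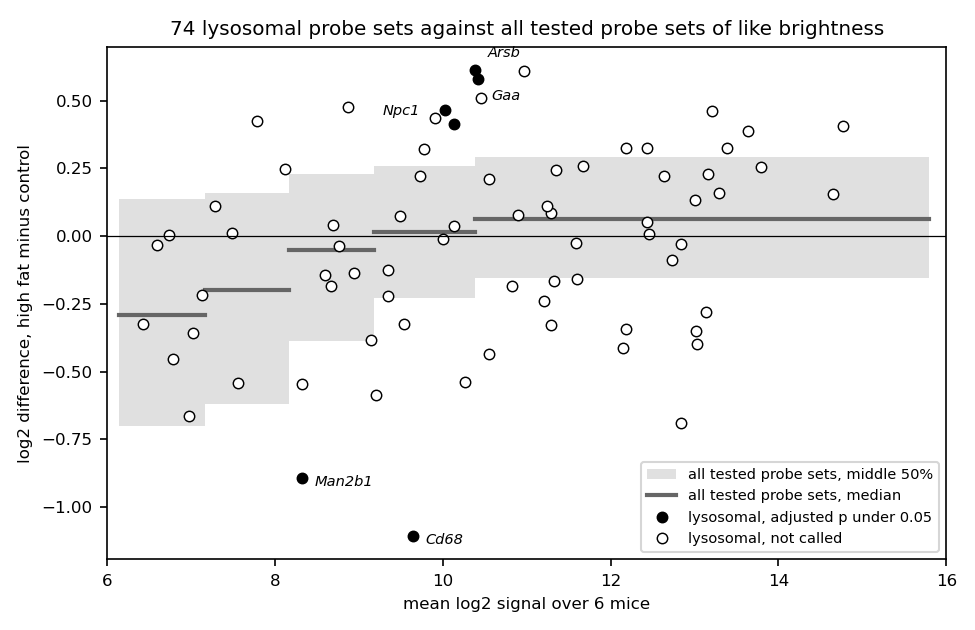
Mean log2 signal over 6 mice (horizontal axis) and log2 difference, high fat minus control (vertical axis), of 74 lysosomal probe sets, with filled points for an adjusted p under 0.05. Grey bars show the median and the middle 50% of all tested probe sets in 5 bins of equal number, whose median runs from -0.29 in the dimmest bin to 0.06 in the brightest.

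Some markers of alveolar macrophages, cells rich in Cd68, were lower in high fat lungs, as Cd68 was. Of 10 such markers, all tested, 4 were called lower in high fat lungs and 0 higher. They were Siglecf, a surface lectin (fold 0.264), the keratin Krt79 (0.403), the integrin chain Itgax (0.626) and the interleukin 1 receptor antagonist Il1rn (0.381), with limma adjusted p of 0.0121, 0.0089, 0.0469 and 0.0367. Siglecf was dim, with 38.9, 85.7 and 59.2 in high fat mice, against 198, 225 and 240 in control mice. Its high fat mean of 61.3 lay under the filter signal of 70.3, so it passed the filter only through its control signals. Marco, a scavenger receptor, and Plet1 lay above 0 and were not called. The summed signal of the 10 was 12825, 18038 and 27268 in high fat mice and 27250, 22918 and 23410 in control mice, and the diets overlapped. That sum is carried largely by Chil3, a chitinase-like protein (4856, 7652 and 17288 in high fat mice, against 14307, 11896 and 12294 in control mice). The mean log2 signal, which weights the 10 equally, dim Siglecf included, was 9.03 to 9.51 in high fat mice and 9.87 to 10.18 in control mice, without overlap. High fat replicate 1 had the lowest sum, and it also had the lowest Cd68 and Ctss. The same mouse had the highest summed cardiac muscle signal (145392) and the highest summed adipocyte signal (32293) of the 6 mice. Without high fat replicate 1, Cd68 had a log2 difference of -0.92 and was still called.

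Of 11 markers shared by macrophages more widely, 3 were called higher and 0 lower. These were the complement chains C1qa (fold 2.09), C1qb (1.72) and C1qc (1.72). By its brightest probe set the macrophage receptor Csf1r lay below 0 without being called (log2 difference -0.36, limma adjusted p = 0.0621), and Adgre1, the F4/80 antigen, lay above 0 (log2 difference 0.37, limma adjusted p = 0.111). The summed signal of the 11 was 53638 to 61166 in high fat mice and 46641 to 66682 in control mice, carried largely by the lysozyme gene Lyz2 (36453 to 40331 in high fat mice and 27770 to 47671 in control mice). The mean log2 signal of the 11 was 10.62, 10.79 and 10.90 in high fat mice and 10.44, 10.50 and 10.55 in control mice, with each high fat mouse above each control mouse. The 3 C1q chains, parts of 1 complex, weigh most in that difference (log2 differences 1.06, 0.79 and 0.78). By brightest probe sets 8 of the 11 lay above 0 and 3 below. Those below were Csf1r, Cx3cr1 (-0.54) and Mpeg1 (-0.37), each without overlap and not called. Markers of other leukocytes, some of which carry Ctss, were lower in part. Of tested markers, 3 of 5 of neutrophils, 4 of 6 of B cells and 2 of 5 of T and NK cells were called lower in high fat lungs and 0 higher. Mmp8, 1 of these neutrophil markers, passed the filter only through its control signals. It had 51.1, 58.2 and 53.8 in high fat mice, against 121, 177 and 349 in control mice. The summed B cell signal was 1748 to 3535 in high fat mice and 4833 to 6979 in control mice, without overlap. Among the remaining lists, 2 of 6 endothelial markers were called lower, and 1 of 5 fibroblast and 3 of 4 mesothelial markers were called higher. The part of macrophage numbers in the level of Cd68, and that of other leukocytes in the level of Ctss, was not tested.

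**Figure D4:**
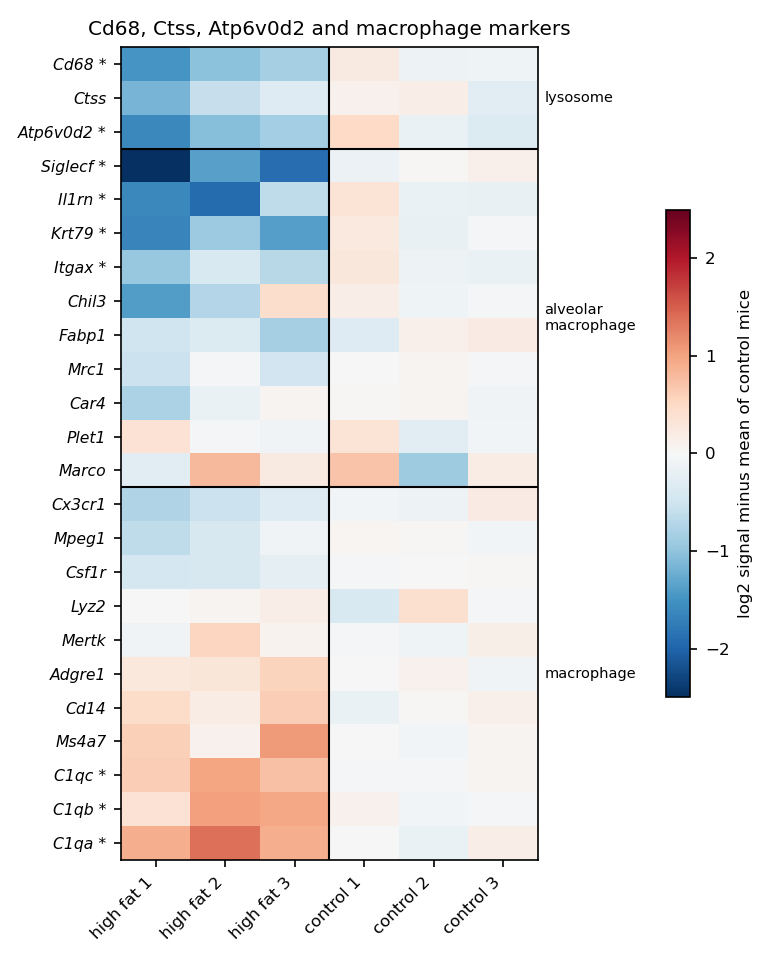
Log2 signal of Cd68, Ctss, the proton pump subunit Atp6v0d2 and macrophage markers in each mouse (columns, high fat mice left of control mice), as the difference from the mean of the control mice (colour). Asterisks mark an adjusted p under 0.05; Cd68, Atp6v0d2, Siglecf, Il1rn, Krt79 and Itgax are below that mean in all 3 high fat mice, and C1qa, C1qb and C1qc above it.

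Few genes of the wider lysosomal pathway were called. Of 77 tested genes in 5 further lists, 4 were called higher and 2 lower by their brightest probe sets, and 71 were not called, against the 9.37 percent called among all genes. The median log2 difference was -0.01.

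The vacuolar ATPase is the proton pump that acidifies lysosomes. Of its 17 tested subunits and accessory proteins, 1 rose, 1 fell and 15 were not called. Atp6v0d2, a subunit isoform known from osteoclasts and macrophages, had 237, 343 and 401 in high fat mice, against 1015, 644 and 572 in control mice. The diets did not overlap, and the fold was 0.443 (limma adjusted p = 0.0249). Its second probe set also fell (fold 0.298, limma adjusted p = 0.0239). Atp6v0a1, a membrane subunit, had 946, 938 and 827 in high fat mice, against 681, 667 and 551 in control mice (fold 1.43, limma adjusted p = 0.0438), without overlap, while its dimmer probe sets lay at -0.34 and -0.63 on the log2 scale. Calls were lost in 7 of 17 other settings for Atp6v0d2 and in 9 of 17 for Atp6v0a1. The widely expressed isoform of the same subunit, Atp6v0d1, was not called (log2 difference 0.29, limma adjusted p = 0.131).

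Of 12 genes of sorting to the lysosome, Igf2r, the large mannose phosphate receptor, rose and the others were not called. It had 1797, 1770 and 1363 in high fat mice, against 930, 1045 and 1188 in control mice (fold 1.55, limma adjusted p = 0.0301), and it lost its call in 8 of 17 other settings. M6pr, the smaller receptor, had a log2 difference of 0.1 (limma adjusted p = 0.586).

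Among 17 genes of lysosomal transcription control and nutrient sensing, Lamtor4 rose and Rraga fell. At an unadjusted p under 0.05 there were 8 of the 17, against 25.5 percent of all genes. Rptor and Fnip1 lay near the threshold in opposite directions (log2 differences 0.55 and -0.55, limma adjusted p = 0.0508 and 0.0576). Lamtor4, a subunit of the scaffold that holds mTORC1 at the lysosome, had 1312, 1381 and 1299 in high fat mice, against 976, 933 and 1044 in control mice (fold 1.35, limma adjusted p = 0.0378). Rraga, a GTPase that this scaffold anchors, had 1320, 1447 and 1156 in high fat mice, against 1998, 1963 and 1997 in control mice (fold 0.656, limma adjusted p = 0.017). Lamtor4 lost its call in 10 of 17 other settings, all 6 fits with 1 mouse left out among them. Rraga lost its call in 4 of 17, among them median centring, with a log2 difference of -0.33 (limma adjusted p = 0.141). The transcription factors Tfeb, Tfe3 and Mitf, which drive lysosomal genes, were not called, with log2 differences of 0.19, 0.31 and 0.22 (limma adjusted p = 0.722, 0.111 and 0.328).

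Of 5 tested cathepsin inhibitors, Cstb rose. This cystatin of the cytosol had 6897, 7779 and 5843 in high fat mice, against 4735, 3855 and 3729 in control mice (fold 1.66, limma adjusted p = 0.0176), and it lost its call in 3 of 17 other settings. Cst3, the secreted cystatin C, had a log2 difference of -0.02. Of 26 further lysosomal hydrolases and membrane proteins, 0 were called by limma and 3 had an unadjusted p under 0.05. Dimmer probe sets of Ids (2 lower), Laptm5 (1 higher), Atp6v0b (1 higher) and Atp6v1c1 (1 lower) were called while the brightest ones of these genes were not. With 1 mouse left out, calls among the 77 genes numbered 0 to 7, with 0 without control replicate 2 or control replicate 3. In those fits 3.08 and 2.68 percent of all tested probe sets were called, against 12.9 percent as reported.

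Of the 4 called genes, Cd68 alone kept its call in every setting tried. The plot of the settings shows that the direction of all 4 was the same throughout while the calls of Arsb, Gaa and Npc1 came and went. With 1 mouse left out, called lysosomal genes numbered 1 to 4 and called probe sets 1 to 7. Without control replicate 2 or control replicate 3 only Cd68 was called, and without high fat replicate 2 Cd68 and the dim probe set of Man2b1 were. Calls fell over the whole array in these fits, to 3.08, 2.68 and 6.38 percent of all tested probe sets, from 12.9 percent.

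**Figure D5:**
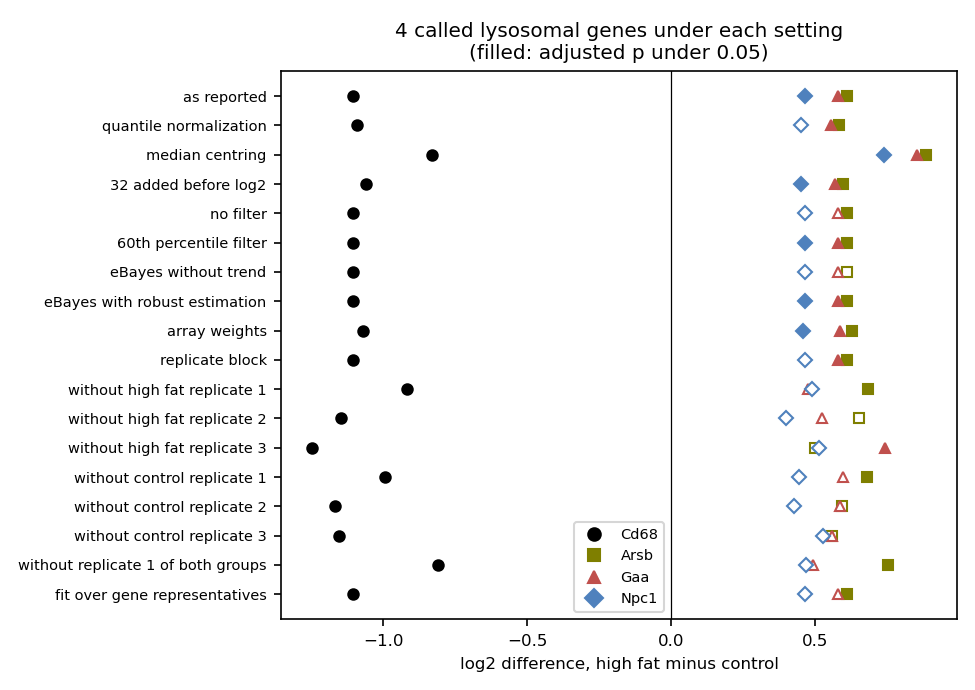
Log2 difference, high fat minus control (horizontal axis), of Cd68, Arsb, Gaa and Npc1 by their brightest probe sets as reported and under 17 other settings (rows), with filled symbols for an adjusted p under 0.05. Cd68 lies between -1.25 and -0.81 and is filled in every row, and the other 3 lie above 0 in every row.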

How the data were processed

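Lung RNA of 6 mice, extracted with Qiagen RNeasy and labelled with Affymetrix biotin per the labels' protocols, was measured on 1 array each. The deposited table holds linear intensity values, which the authors computed with MAS5, per the submitters' processing notes. On every array the mean without the outer 2 percent of probe sets at each end came to 500. MAS5 uses mismatch probes as background, and dim probe sets vary most. The labels give each array a sample number of its own, taken here as 1 mouse. P-values weigh the diet difference against the spread between these samples, which limma moderates with an intensity trend over all tested probe sets. The number of arrays limits the precision, and the labels name no batch beyond sample numbers, which lie in a separate range for each diet.

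Of 45101 probe sets, 34958 carried 1 gene symbol in the platform annotation, 932 several and 9211 none, and 64 were array controls, which were not tested. Values under 1 were raised to 1 before log2. Probe sets entered the test if their mean log2 signal reached the 40th percentile (a signal of 70.3). The two-sided test was limma (version 3.58.1, R 4.3.3), lmFit and eBayes with an intensity trend, with diet as its term and 4 residual degrees of freedom, and was tested on simulated data. P-values were adjusted by Benjamini-Hochberg over 27022 tested probe sets. The brightest tested probe set stands for a gene. A log2 difference subtracts control from high fat. A fold is that difference on the linear scale, high fat over control.

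The members, further gene lists and markers were chosen with earlier results of these data known. By rule, per-mouse values are given for genes called by their brightest probe set and for common lysosome markers, and in the further lists for called genes, at most 4 per list. Ctsh, Man2b1 and Galc, the uncalled genes of the further lists and the dimmer called probe sets were added after their values were seen. Promoter sequences are from RefSeq, build GRCm38.p6. Alternatives tried were quantile normalization, median centring, 32 added before log2, no filter, a 60th percentile filter, no trend, robust estimation, weights per array, a block for the replicate number, each mouse left out, replicate 1 of both diets left out, and a fit of gene representatives only.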

Additional observations from a re-analysis of the deposited data

How the results depend on the processing

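As reported, 6 lysosomal probe sets, 4 lysosomal genes and 6 further lysosomal genes were called, and the median log2 difference of the 74 probe sets was 0.0049. With median centring these were 23, 12, 18 and 0.28. Of all tested probe sets 20.2 percent were called with that centring, against 12.9 percent as reported. Without the filter, 3 probe sets and 2 genes were called. Without the intensity trend, 2 probe sets, 1 gene and 2 further genes were called. Array weights gave 10 probe sets and a median of -0.010. The median was -0.0024 with quantile normalization and 0.043 with the 60th percentile filter. Without replicate 1 of both diets, 2 probe sets, 2 genes and 1 further gene were called, and the median was -0.0087. The fit of gene representatives only called 2 genes, against 6.38 percent of all representatives. Calls among all tested probe sets came to 5.84 percent without the filter and 9.27 percent without the trend. They came to 13.9 percent with array weights and 4.97 percent without replicate 1 of both diets. With 1 mouse left out, 1 to 7 probe sets, 1 to 4 genes and 0 to 7 further genes were called, and the median ran from -0.047 to 0.033. The fewest calls, 1 probe set, came without control replicate 2 or control replicate 3, where 3.08 and 2.68 percent of all tested probe sets were called. The cause was not tested, beyond the fewer mice or other probe sets that these settings hold. With the replicate number as a block, 6 probe sets, 4 genes and 6 further genes were called, of which 4 of the 6 probe sets were shared with the unblocked fit. Deviations of same-numbered mice correlated at 0.167, 0.108 and -0.0413, and those of differently numbered mice at -0.213 to 0.127. With 3 mice per diet, these values cannot tell whether the numbers pair the mice. No called lysosomal probe set changed direction under any setting that gave it a value. Of 68 uncalled ones, 16 changed sign with median centring, 7 with quantile normalization and at most 8 in each other setting. The dimmest probe sets lie near the filter, and 3 mice per diet limit what can be called.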
